A study of Homo sapiens with 24 samples.

Results

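The 83 genes described here encode the proteins of the cytosolic ribosome. They were taken by symbol from the 26475 genes measured, as names that start with RPS or RPL (RPLP included) followed by a number, with an optional A, X or L and a further digit. Of these genes 31 belong to the small subunit (RPS) and 52 to the large subunit (RPL). The set includes 7 paralogs that carry the name of another member followed by L or L1 (RPL10L, RPL22L1, RPL26L1, RPL39L, RPL3L, RPL7L1 and RPS27L). RNA was sequenced from 786-M1A and OS-LM1, metastatic derivatives of the clear cell renal cell carcinoma (ccRCC) lines 786-O and OS-RC2, which carry inactivated VHL and a luciferase transgene. Each line was measured with RNA interference constructs shPAX8-1 and shPAX8-2, which target the renal lineage transcription factor PAX8, and with sgNTC18, by its name a non-targeting guide RNA. The 6 groups held 4 libraries each, 24 in all, from cells grown in RPMI with 10% fetal bovine serum. Since sgNTC18 is by its name a guide RNA and not an RNA interference construct, in each comparison with it the targeting of PAX8 and the kind of construct cannot be told apart.

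A ribosome is built from a small subunit, which reads the messenger RNA, and a large subunit, which forms the peptide bonds, and most ribosomal proteins are present in 1 copy in each. The genes lie scattered over the genome and give short, abundant transcripts. Most of these begin with a cytosine and a run of pyrimidines, the 5′ terminal oligopyrimidine (TOP) tract, through which mTOR and LARP1 control their stability and translation. Of the 83 genes, 66 have an entry in the RefSeq promoter table of GRCh38.p14. A cytosine at an annotated start, followed by at least 4 pyrimidines (C or T, read on the gene's own strand), stood at 46 of these 66 (69.7%). Over all 27305 genes of the table the share was 5.14%. Among paralogs the tract was present at 1 of 5, RPL22L1. The windows shown run from 8 bases before the annotated first base to 16 bases from it. They belong to members that rose most (RPL26, RPL31), to the member with the highest mean level over the 24 libraries (RPS27), to members that fell with both constructs in OS-LM1 (RPS9, RPS16, RPL10) and to the pairs of paralogs described further on. Capitals mark the tract or, where the letters do not form one, the annotated first base.
RPL26, chr17:8383178-8383201, minus strand: gtgtagttCTCTTCCCTTTTgcgg
RPL31, chr2:101002281-101002304, plus strand: ttcgcgctCTTCCTTTCCaacttg
RPS27, chr1:153990754-153990777, plus strand: ctttcgctCCTTTCCggcggtgac
RPS9, chr19:54200850-54200873, plus strand: ttccgcgcCTCTTTCTCagtgacc
RPS16, chr19:39435934-39435957, minus strand: ctagctttCCTTTTCCggttgcgg
RPL10, chrX:154398369-154398392, plus strand: aggagcgcCTCTTTCCCTTCggtg
RPL22, chr1:6199580-6199603, minus strand: ctcacctcCCTTTCTaactccgct
RPL22L1, chr3:170870180-170870203, minus strand: gtagcttcCTCTCTgctctcgcgg
RPL26L1, chr5:172958721-172958744, plus strand: caggggtcGgcgaacgaaacgcgg
RPL7L1, chr6:42879608-42879631, plus strand: gcggcgccGtagctaggagcggac
RPS27L, chr15:63157462-63157485, minus strand: tgccgagcGcagatcgcttgcagc
RPL26 and RPL31, which rose, and RPS9, RPS16 and RPL10, which fell in OS-LM1, carry the tract. RPL32, which rose, and RPL3 and RPS26, which fell in 786-M1A, do not. Between shPAX8-1 and sgNTC18 in 786-M1A, for example, the median log2 fold change was 0.65 over the 46 members with a tract and 0.43 over the 19 tested members without one. In OS-LM1 the medians with shPAX8-1 were 0.36 and 0.21. With shPAX8-2 they were 0.55 and 0.27 in 786-M1A, and 0.40 and 0.37 in OS-LM1. The members without a tract include the paralogs RPL26L1, RPL7L1 and RPS27L.

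Library totals ranged from 11634419 to 52059375 expected counts. PAX8 averaged 341 CPM (counts relative to the library total, scaled by trimmed mean of M values) in the 786-M1A sgNTC18 libraries, against 18.7 with shPAX8-1 and 42.4 with shPAX8-2. In OS-LM1 the PAX8 means were 259.9, 78.2 and 79.2 CPM. Of the other renal carcinoma markers, CA9 and NDUFA4L2 were near 0 in 786-M1A, with group means of at most 0.317 CPM. Of 10 markers of immune, endothelial, fibroblast and hepatic cells, CD3E had no count in any library and 7 others reached at most 8.56 CPM, the highest library of LUM. CD68 and COL1A1 moved with the groups, and the sum of the 10 markers was 207 CPM in sgNTC18 libraries and 259 and 366 CPM with shPAX8-1 and shPAX8-2 in 786-M1A. The corresponding sums in OS-LM1 were 98.1, 408 and 395 CPM. Without CD68 and COL1A1 the sums were 1.44, 6.88 and 6.55 CPM in 786-M1A, and 1.10, 3.76 and 1.78 CPM in OS-LM1. The part of the 10 markers in the results was not tested. A lower share of a transcript in bulk RNA can reflect fewer cells that carry it or less of it per cell, and these cannot be told apart.

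Levels of different members were compared per length, in TPM, the length-scaled share of the transcripts in a library. Among the 76 members that are no paralog, the median in 786-M1A sgNTC18 libraries was 1585 TPM and the quartiles lay at 756 and 2540 TPM. Over the 6 groups the medians ran from 1566 to 2236 TPM, and between 48 and 60 of the 76 members exceeded 1000 TPM. The levels of the members were thus unequal. Averaged over the 24 libraries, the highest members were RPS27 at 7320 TPM, RPS28 at 6828 TPM, both of the small subunit, and RPL27 of the large subunit at 6167 TPM. RPL41, the smallest ribosomal protein, followed at 5531 TPM, and RPLP1, an acidic protein of the stalk that recruits elongation factors, at 5498 TPM. The highest member differed between groups. It was RPS28 in the 3 groups of 786-M1A (5868, 8409 and 9132 TPM), RPS16 in OS-LM1 sgNTC18 (9847 TPM) and RPS27 in both OS-LM1 shPAX8 groups (11911 and 10890 TPM). The libraries overlapped widely between the 5 genes with the highest means, since those of RPS27 alone ranged from 2603 to 13256 TPM. The lowest member that is no paralog was RPL22 at 162 TPM, in every one of the 6 groups. Above it, named after their values were seen, came RPL27A at 256 TPM and RPS3, a protein of the mRNA entry site, at 283 TPM. The gene length deposited by the authors was 2085 bases for RPL22 and 4879 for RPL27A, against 351 for RPS27 and a median of 719 over the members. TPM divides by the length the authors' annotation gave, and the part of the annotated length in this order was not tested.

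The paralogs were measured far below the genes they are named for. RPL10L, RPL3L and RPL39L, known mainly from testis or muscle, averaged 0.0683, 0.030 and 0.236 TPM, and none passed the filter on low counts. RPL3L had no count in any of the 4 OS-LM1 sgNTC18 libraries and at most 6 in any library, so no fold change is given for it. RPL26L1 reached 23.2% ± 2.93 (SD, n = 4) of the TPM of RPL26 in 786-M1A sgNTC18 libraries and 8.66% ± 2.59 with shPAX8-1. In OS-LM1 it stood at 18.9% ± 1.91 in sgNTC18 and 5.16% ± 0.722 in shPAX8-1 libraries. The ranges of sgNTC18 and shPAX8 libraries did not overlap in either line. RPL26, described further on, rose in all 4 comparisons with sgNTC18, while RPL26L1 passed the threshold in 1 of them, shPAX8-1 in 786-M1A (log2 fold change 0.56, SE 0.11, adjusted p = 4.52e-04). RPL7L1, whose product acts in ribosome assembly rather than in the finished particle, stood at 5.73% ± 0.794 of RPL7 in 786-M1A sgNTC18 and 10.9% ± 1.63 in OS-LM1 sgNTC18 libraries. RPS27L, a target gene of p53, ranged from 0.552% to 4.35% of RPS27 and RPL22L1 from 1.67% to 14.2% of RPL22 over the 24 libraries.

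Together the 83 genes took a larger share of all expected counts in shPAX8 than in sgNTC18 libraries. In 786-M1A the share was 5.18, 5.04, 5.31 and 5.71% in the 4 sgNTC18 libraries. With shPAX8-1 it was 7.07, 7.29, 7.28 and 7.91%, and with shPAX8-2 6.56, 7.0, 6.93 and 7.87%. Every shPAX8 library of 786-M1A therefore lay above every sgNTC18 library of that line. In OS-LM1 the share was 6.06, 6.5, 6.67 and 6.99% in sgNTC18, 8.14, 6.8, 8.15 and 8.3% in shPAX8-1 and 7.2, 8.12, 7.33 and 8.95% in shPAX8-2 libraries. Here replicate 2 of shPAX8-1 fell within the sgNTC18 range, and the other shPAX8 libraries lay above it. Without that library the shPAX8-1 mean was 8.19%. The group means were 5.31 ± 0.287%, 7.38 ± 0.364% and 7.09 ± 0.556% (SD, n = 4) in 786-M1A and 6.56 ± 0.388%, 7.85 ± 0.699% and 7.9 ± 0.81% in OS-LM1. No p is given for these sums, since the genes were chosen with results of these data known. Both subunits contributed, with a small-subunit share of 2.21 ± 0.122% and a large-subunit share of 3.1 ± 0.167% in 786-M1A sgNTC18 libraries against 3.11 ± 0.247% and 4.28 ± 0.155% with shPAX8-1.

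**Figure D1:**
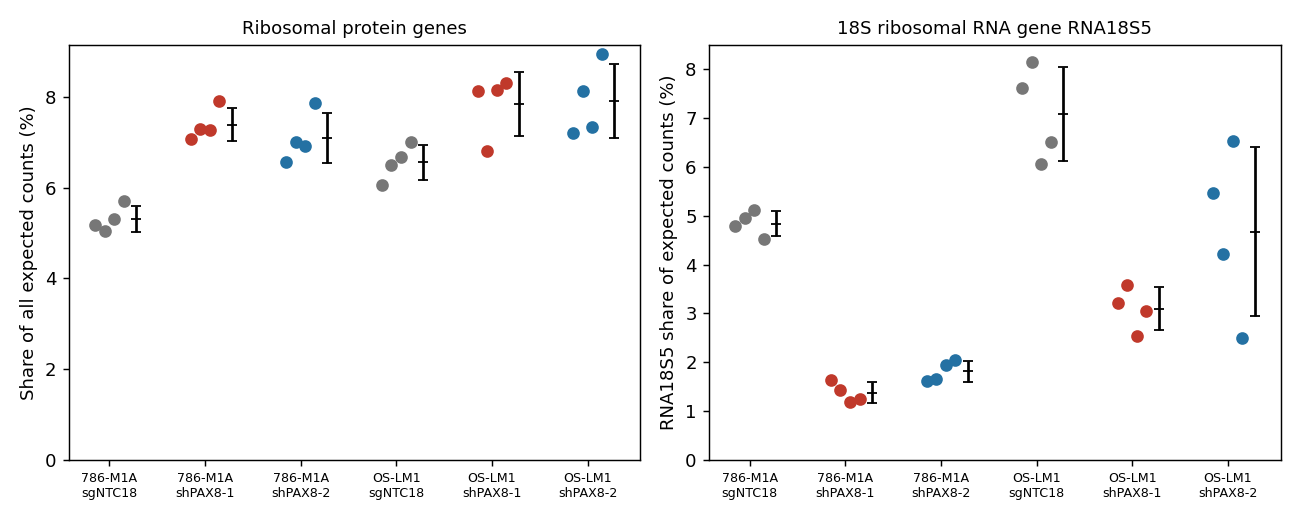
Left, the share of all expected counts taken by the 83 ribosomal protein genes in each library (percent, points), and right, the share taken by RNA18S5, an 18S ribosomal RNA gene. Points are libraries, the bar beside them the mean and SD of 4 libraries. The ribosomal protein share lay between 5.04 and 5.71% in 786-M1A sgNTC18 libraries and between 6.56 and 7.91% in the shPAX8 libraries of that line, while the RNA18S5 share of the sgNTC18 libraries of 786-M1A lay above that of its shPAX8 libraries.

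The share of RNA18S5, an RNA that poly(A) capture is meant to leave behind, moved with the groups in the other direction. It averaged 4.84 ± 0.253% in 786-M1A sgNTC18 libraries, 1.38 ± 0.209% with shPAX8-1 and 1.81 ± 0.213% with shPAX8-2, and 7.09 ± 0.969%, 3.09 ± 0.437% and 4.68 ± 1.74% in OS-LM1, where replicate 3 of shPAX8-2 (6.53%) overlapped with the sgNTC18 libraries. With ribosomal RNA and MTRNR2L genes left out of the total, the share of the members was 5.69 ± 0.296%, 7.69 ± 0.386% and 7.39 ± 0.563% in 786-M1A and 7.28 ± 0.416%, 8.29 ± 0.735% and 8.52 ± 0.69% in OS-LM1. The sgNTC18 mean stayed below both shPAX8 means in each line. The part of ribosomal RNA in the differences between single members was not tested.

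In several libraries nearly all members lay on the same side of their group mean, and in others they were split. For each library the deviation of a member's log2 CPM from its group mean was taken over the 80 members that passed the filter. In 786-M1A shPAX8-2 replicate 4, 79 of 80 members lay above the group mean, by a median of 0.18. In OS-LM1 shPAX8-2 replicate 1, 79 of 80 lay below it, with a median of -0.17, and in replicate 4 of that group 76 lay above it, with a median of 0.19. The median deviation of all genes was between -0.036 and 0.023 in every library. OS-LM1 shPAX8-1 replicate 2, the library with the low share, had 72 of 80 members below its group mean (median -0.24). The split was near even in 786-M1A sgNTC18 replicate 1 (37 above), shPAX8-1 replicate 3 (40), and shPAX8-2 replicates 2 and 3 (33 and 42). Replicate 4 had the highest median deviation of its group in all 6 groups (0.12, 0.15, 0.18, 0.083, 0.11 and 0.19) and the highest share of counts in all 6. Of the 6 groups, 786-M1A shPAX8-1 was the least coherent. The scaled median absolute deviation (MAD, a spread comparable to an SD) of the members' deviations was 0.18 to 0.33 there and 0.048 to 0.20 in the other 5 groups. RPS20, a protein of the small subunit head, is an example, with 2176, 2505, 4382 and 4611 CPM in its replicates 1 to 4. Replicates 3 and 4 lay apart from replicates 1 and 2.

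The first question is how the members differed between libraries with PAX8 constructs and sgNTC18 libraries of the same line. In 786-M1A with shPAX8-1, 53 of the 80 members tested were higher and 11 lower than in sgNTC18 (edgeR's quasi-likelihood test, Benjamini-Hochberg adjusted p under 0.05 over all genes). Of all genes tested 36.1% were higher and 34.5% lower, so the share of higher members, 66.2%, was above the background and that of lower members, 13.8%, below it. In either direction 64 members were called, with 70.6% of all genes called. The median log2 fold change of the members was 0.58, that of all genes 0.034. With shPAX8-2, 51 members were higher and 6 lower, against 31.5% and 30.9% of all genes (57 members and 62.5% of all genes in either direction), with a median of 0.53. Both comparisons use the same 4 sgNTC18 libraries. Small-subunit and large-subunit members had medians of 0.65 and 0.56 with shPAX8-1 and of 0.53 and 0.53 with shPAX8-2. The members did not move as 1 block. With shPAX8-1 they spread from -0.94 (RPS9) to 2.17 (RPL23A), with a MAD of 0.78 against 1.13 for all genes, and with shPAX8-2 from -1.35 (RPL22L1) to 1.87 (RPL23A), with a MAD of 0.53.

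**Figure D2:**
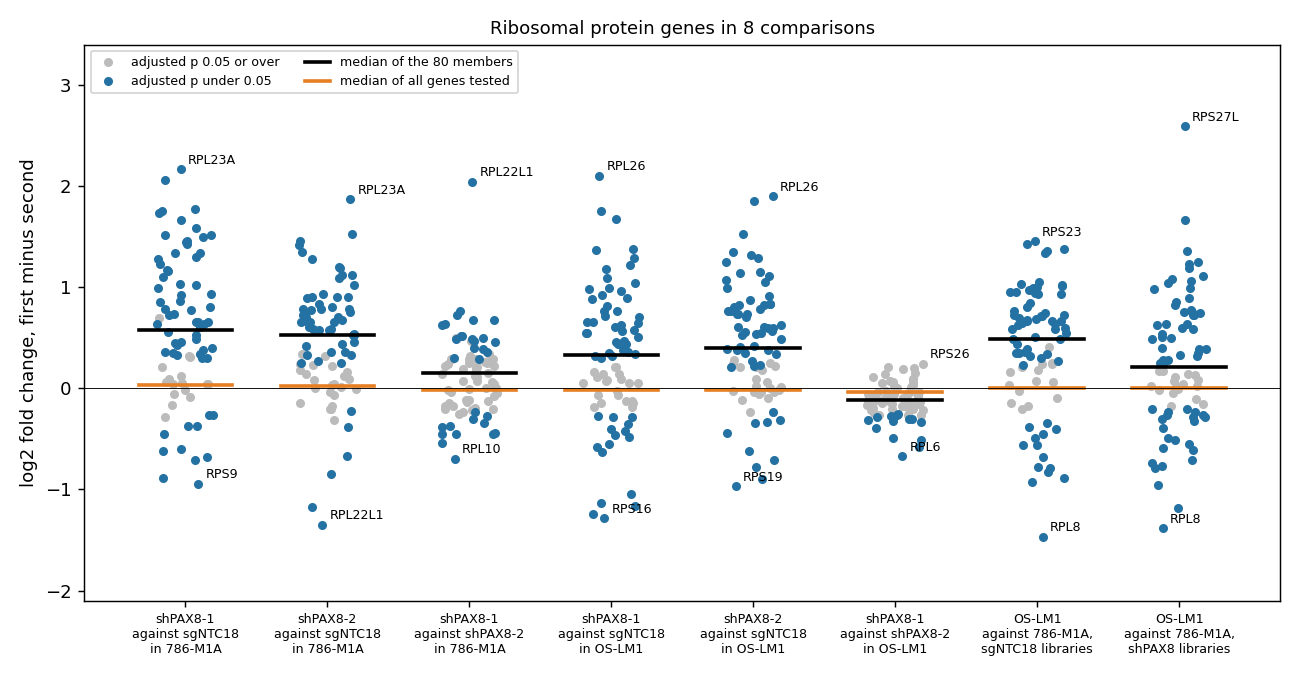
Log2 fold change (first group minus second) of the 80 ribosomal protein genes tested, in the 6 comparisons within a line and the 2 comparisons between lines. Each point is a gene, blue where the adjusted p was under 0.05. Black bars are the members' medians and orange bars the medians of all genes tested. The member medians lie between 0.33 and 0.58 in the 4 comparisons with sgNTC18 and at −0.12 between the constructs in OS-LM1.

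In OS-LM1 with shPAX8-1, 43 members were higher and 16 lower than in sgNTC18, against 35.6% and 35.8% of all genes (59 members and 71.4% of all genes in either direction). The median was 0.33, with a range from -1.28 (RPS16) to 2.10 (RPL26). With shPAX8-2, 49 were higher and 10 lower, against 34.3% and 34.1% of all genes (59 members and 68.4% of all genes in either direction), and the median was 0.40, from -0.97 (RPS19) to 1.90 (RPL26). Without replicate 2 of shPAX8-1, which stood apart in its group, 59 members were called with shPAX8-1 and the median was 0.40. The percentages of members that were lower, 20% and 12.5%, were below those of all genes in both comparisons. Nothing in the labels says that replicates came from separate cultures, so the p-values measure the spread between these libraries, which may be technical.

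The 3 largest rises with each construct in 786-M1A were in proteins of the large subunit, and in OS-LM1 RPL26, RPS27L and RPL23A rose most. RPL23A, which sits at the exit of the peptide tunnel and docks the signal recognition particle, had 369.8, 357, 425 and 464 CPM in 786-M1A sgNTC18 libraries. It had 1543, 1679, 1910 and 2026 CPM with shPAX8-1 (log2 fold change 2.17, SE 0.12, adjusted p = 6.71e-10) and 1323, 1545, 1550 and 1422 CPM with shPAX8-2 (log2 fold change 1.87, SE 0.11, adjusted p = 5.06e-09). In OS-LM1 the levels were 712, 852, 793 and 923 CPM in sgNTC18, 2835, 1635, 3170 and 3067 CPM with shPAX8-1 (log2 fold change 1.68, SE 0.19, adjusted p = 1.05e-06) and 1776, 2666, 2196 and 2795 CPM with shPAX8-2 (log2 fold change 1.53, SE 0.19, adjusted p = 3.24e-06). All shPAX8 libraries of a line lay above all its sgNTC18 libraries. RPL26, its neighbour at the tunnel exit, had 155, 124, 147 and 164 CPM in 786-M1A sgNTC18 and 405, 503, 683 and 833 CPM in shPAX8-1 libraries (log2 fold change 2.06, SE 0.19, adjusted p = 1.65e-07). The OS-LM1 levels of RPL26 were 234, 282, 279 and 333 CPM in sgNTC18, 1355, 725, 1534 and 1329 CPM in shPAX8-1 (log2 fold change 2.10, SE 0.20, adjusted p = 2.45e-07) and 873, 1161, 962 and 1216 CPM in shPAX8-2 libraries (log2 fold change 1.90, SE 0.20, adjusted p = 7.92e-07). Again no shPAX8 library reached down to the sgNTC18 range, although replicate 2 of OS-LM1 shPAX8-1 was the lowest of its group for both genes. RPL31, also of the tunnel exit, rose with both constructs in 786-M1A (log2 fold changes 1.75 and 1.46) and in OS-LM1 (0.96 and 1.06), with adjusted p between 1.95e-08 and 3.51e-06 in edgeR's quasi-likelihood test. RPL32 changed by 1.74 and 1.53 in 786-M1A and by 1.00 and 1.15 in OS-LM1. RPL23, whose free form binds MDM2, changed by 1.77 and 1.28 in 786-M1A and by 1.22 and 1.25 in OS-LM1, and each of these changes passed the threshold.

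A smaller group of members fell. RPS9, an early-assembling protein at the mRNA entry of the small subunit, had 517, 612, 645 and 583 CPM in 786-M1A sgNTC18, 348, 299, 274 and 286 CPM in shPAX8-1 (log2 fold change -0.94, SE 0.11, adjusted p = 1.36e-06) and 361, 359, 325 and 418 CPM in shPAX8-2 libraries (log2 fold change -0.67, SE 0.11, adjusted p = 6.25e-05). In OS-LM1 it had 810.0, 719, 761 and 712 CPM in sgNTC18, 355, 385, 363 and 383 CPM in shPAX8-1 (log2 fold change -1.04, SE 0.076, adjusted p = 3.50e-10) and 413, 429.7, 452 and 452 CPM in shPAX8-2 libraries (log2 fold change -0.78, SE 0.075, adjusted p = 2.62e-08). No shPAX8 library overlapped with the sgNTC18 libraries of its line. RPS2, its neighbour at the mRNA entry, had 2332, 3271, 3035 and 2908 CPM in 786-M1A sgNTC18, 1779, 1671, 1337 and 1377 CPM in shPAX8-1 (log2 fold change -0.88, SE 0.12, adjusted p = 1.33e-05) and 1540, 1718, 1359 and 1692 CPM in shPAX8-2 libraries (log2 fold change -0.85, SE 0.12, adjusted p = 2.90e-05). The groups did not overlap in that line, and in OS-LM1 the change was -0.48 with shPAX8-1 (adjusted p = 6.80e-04) and -0.23 with shPAX8-2 (adjusted p = 0.0679). RPL8, which lies near the peptidyl transferase centre, fell in all 4 comparisons, by 0.62 and 0.38 on the log2 scale in 786-M1A and by 0.58 and 0.31 in OS-LM1. RPL3, which also reaches towards that centre, fell with shPAX8-1 in 786-M1A (log2 fold change -0.68, SE 0.087, adjusted p = 5.07e-06) and OS-LM1 (log2 fold change -0.29, SE 0.089, adjusted p = 0.00722), fell with shPAX8-2 in 786-M1A (log2 fold change -0.23, SE 0.086, adjusted p = 0.033) and rose with it in OS-LM1 (log2 fold change 0.21, SE 0.088, adjusted p = 0.043).

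Members that rose and fell differed in base composition. Ordered by the GC content of their canonical transcript, which is known for all 83 genes, the 27 tested members with the lowest GC (39.9 to 45.2%) had a median log2 fold change of 0.93 between shPAX8-1 and sgNTC18 in 786-M1A, with 23 higher and 0 lower. The 26 in the middle had 0.64 and the 27 with the highest GC (51.5 to 63.6%) 0.045, with 10 higher and 9 lower. RPL26, RPL31 and RPL23 belong to the low-GC members, and RPS9, RPS2, RPL8, RPL3, RPS16 and RPL10 to the high-GC members. RPL23A and RPL32, which rose, and RPS26, which fell in 786-M1A, lie in the middle. With shPAX8-2 in 786-M1A the medians of the low, middle and high GC members were 0.66, 0.55 and 0.25. In OS-LM1 the medians of the low, middle and high GC members were 0.60, 0.40 and -0.28 with shPAX8-1 and 0.74, 0.54 and 0.059 with shPAX8-2.

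**Figure D3:**
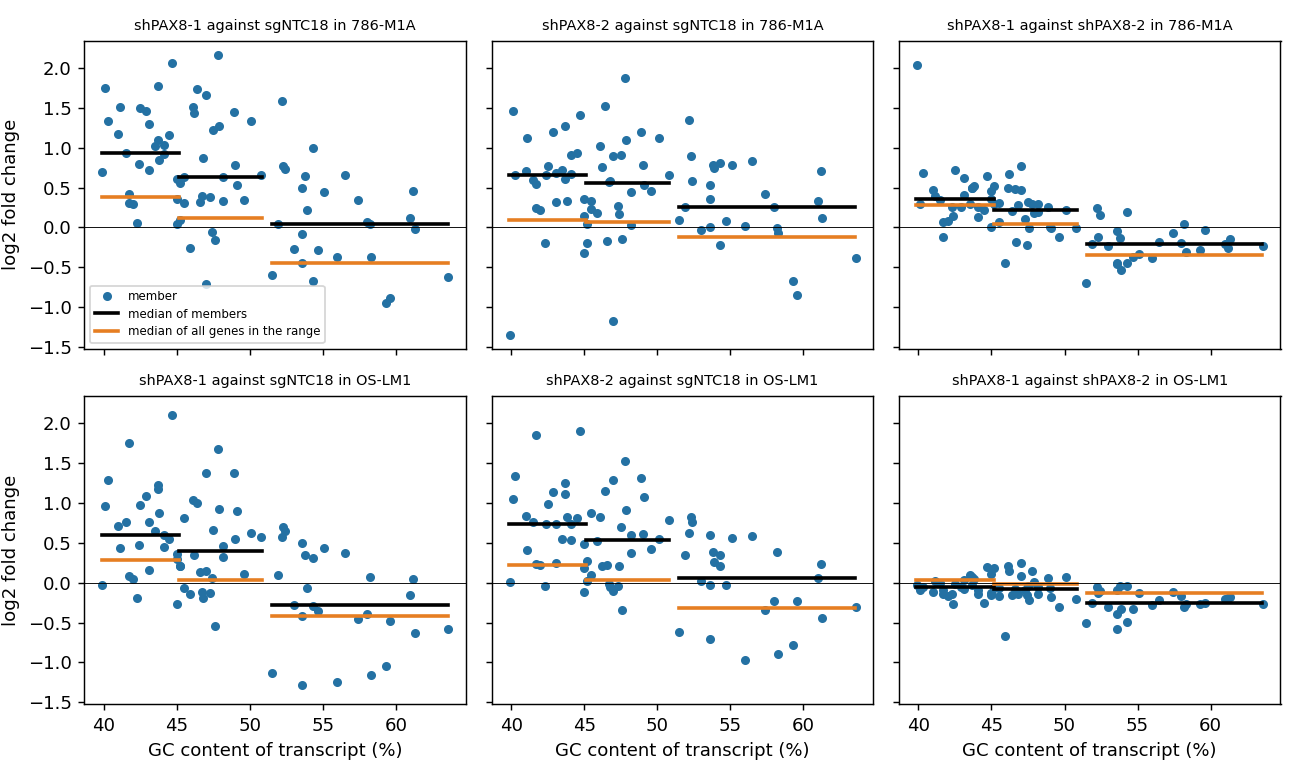
Log2 fold change of each of the 80 members tested against the GC content of its canonical transcript (percent), in the 6 comparisons within a line. Black lines are the medians of the low, middle and high GC members, orange lines the medians of all genes tested in the same GC range. In the comparisons with sgNTC18 both lines fall from left to right, and the black lines lie above the orange ones.

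All genes of the same GC range followed the same order. In 786-M1A with shPAX8-1 their medians were 0.38, 0.11 and -0.44 from low to high GC, and in OS-LM1 with shPAX8-1 0.29, 0.028 and -0.42. The members' medians were higher than these in each GC range of the 4 comparisons with sgNTC18. With the trend over GC of all genes removed, the medians of the members were 0.62, 0.58 and 0.64 for shPAX8-1 in 786-M1A, and 0.37, 0.35 and 0.062 in OS-LM1. Spearman's rho between GC content and log2 fold change over the 80 members, which share their libraries, went with this step from -0.51 to -0.018 for shPAX8-1 in 786-M1A and from -0.51 to -0.10 in OS-LM1. For shPAX8-2 it went from -0.22 to -0.062 in 786-M1A, where the MAD of the members was 0.53 before and 0.54 after, and from -0.45 to -0.09 in OS-LM1. These are correlations across genes, given as a description.

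The second question is whether the constructs differed from each other. In 786-M1A, 19 of 80 members were higher and 12 lower with shPAX8-1 than with shPAX8-2, against 24.2% and 22.9% of all genes, so the members' share of higher calls, 23.8%, was near the background and that of lower calls, 15%, below it. The median was 0.15. The 31 calls became 50 without replicate 1 of shPAX8-1, 14 without replicate 4 of shPAX8-1 or replicate 1 of shPAX8-2, and 16 without replicate 3 of shPAX8-1 or replicate 2 of shPAX8-2. By GC content, 12 of the low-GC members were higher and none lower, and none of the high-GC members were higher and 11 lower. With the trend over GC of all genes removed, 6 low-GC members were higher and 2 lower, and 12 high-GC members were higher and 5 lower. The highest called members after RPL22L1 were RPS20 (log2 fold change 0.77, SE 0.20, adjusted p = 0.0066) and RPS3A (log2 fold change 0.72, SE 0.23, adjusted p = 0.0201), proteins of the small subunit. The RPS3A call was lost with the GC trend removed (0.41, adjusted p = 0.0749) and without replicates 3 or 4 of shPAX8-1 or replicates 1 or 2 of shPAX8-2. The lowest were RPL10, which completes the peptidyl transferase centre late in assembly (log2 fold change -0.69, SE 0.11, adjusted p = 2.72e-04), RPL13A (log2 fold change -0.54, SE 0.13, adjusted p = 0.00334) and RPS10 (log2 fold change -0.46, SE 0.11, adjusted p = 0.00331). RPL13A is uncertain, since the listed pseudogene RPL13AP5 held 244% of its counts in 786-M1A and 245% in OS-LM1 and may share its reads. In OS-LM1 no member was higher with shPAX8-1 and 14 of 80 (17.5%) were lower, against 12.4% and 16.7% of all genes. That count was 8 when only genes with no count were removed and 27 with the trend over transcript length removed, and it was 5 without replicate 4 of shPAX8-2, 7 without replicate 3 of shPAX8-1 and 9 without replicate 3 of shPAX8-2. The members lay close together there, with a MAD of 0.13 around a median of -0.12, against a MAD of 0.37 for all genes. The members furthest from the others were RPL6 and RPS16. RPL6, a large-subunit protein, had 1065, 751, 918 and 1047 CPM with shPAX8-1 and 1314, 1560, 1283 and 1740 CPM with shPAX8-2 in OS-LM1 (log2 fold change -0.67, SE 0.11, adjusted p = 1.79e-04), and in 786-M1A 509, 505, 560.2 and 603 CPM with shPAX8-1 and 705, 698, 748 and 805 CPM with shPAX8-2 (log2 fold change -0.44, SE 0.089, adjusted p = 0.00126). The constructs did not overlap in either line.

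A few members departed from the rest in 1 line or with 1 construct, by more than 3 MADs from the members' median or by a test of the difference between lines. RPL22L1, the paralog of RPL22, had 13.3, 8.79, 8.38 and 13.3 CPM in 786-M1A sgNTC18 libraries, 9.41, 8.38, 25.8 and 26.5 CPM with shPAX8-1 and 4.89, 4.48, 3.07 and 4.33 CPM with shPAX8-2. With shPAX8-2 all 4 libraries lay below all others of the line, and with shPAX8-1 replicates 3 and 4 stood well above replicates 1 and 2. RPL22L1 fell with shPAX8-2 against sgNTC18 (log2 fold change -1.35, SE 0.36, adjusted p = 0.00396) and was higher with shPAX8-1 than with shPAX8-2 (log2 fold change 2.04, SE 0.36, adjusted p = 4.82e-04), while shPAX8-1 against sgNTC18 did not pass (log2 fold change 0.70, SE 0.33, adjusted p = 0.070). In OS-LM1 the levels were 17.6, 19.2, 20.5 and 21.1 CPM in sgNTC18, 21.3, 18.3, 19.5 and 19.4 CPM in shPAX8-1 and 22.2, 26.3, 13.9 and 17 CPM in shPAX8-2 libraries, and the groups overlapped. The difference between the lines in shPAX8-1 against shPAX8-2 was -2.05 ± 0.40 (SE, adjusted p = 4.85e-04). RPL22 itself had group means between 162 and 221 CPM.

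**Figure D4:**
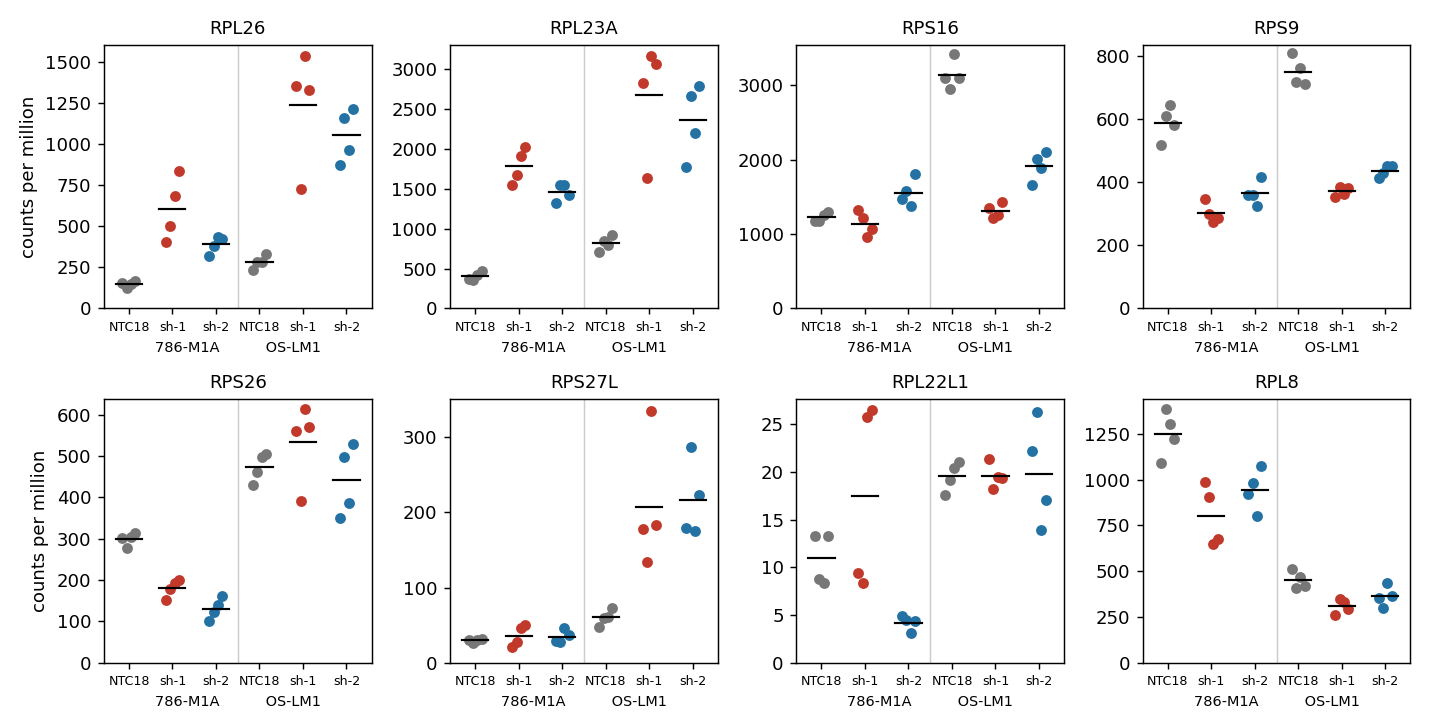
CPM of 8 ribosomal protein genes in each of the 24 libraries (points; black bar, mean of 4 libraries), by line and construct (NTC18, sgNTC18; sh-1, shPAX8-1; sh-2, shPAX8-2). RPL26 and RPL23A rose with both constructs in both lines, RPS9 fell, RPS16 fell in OS-LM1, RPS26 fell in 786-M1A, RPS27L rose in OS-LM1, RPL22L1 fell with shPAX8-2 in 786-M1A, and RPL8 was lower in OS-LM1 throughout.

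RPS27L had 48, 58.9, 61.1 and 73.2 CPM in OS-LM1 sgNTC18 libraries, 177, 134, 336 and 184 CPM with shPAX8-1 (log2 fold change 1.76, SE 0.28, adjusted p = 1.93e-04) and 180.0, 287, 176 and 224 CPM with shPAX8-2 (log2 fold change 1.85, SE 0.28, adjusted p = 1.46e-04). Every shPAX8 library lay above every sgNTC18 library, and replicate 3 of shPAX8-1 was the highest. In 786-M1A all 12 libraries lay between 21.3 and 49.7 CPM and neither construct passed the threshold (adjusted p = 0.252 and 0.385). The lines differed in the change from sgNTC18 by 1.56 ± 0.32 (SE, adjusted p = 2.09e-04). RPS26, a protein of the mRNA exit that varies in its occupancy of the ribosome, had 301, 278, 304 and 313 CPM in 786-M1A sgNTC18, 152, 178, 194 and 199 CPM in shPAX8-1 (log2 fold change -0.71, SE 0.13, adjusted p = 1.58e-04) and 101, 122, 138 and 160.5 CPM in shPAX8-2 libraries (log2 fold change -1.18, SE 0.13, adjusted p = 1.84e-06). The shPAX8 libraries all lay below the sgNTC18 libraries. In OS-LM1 the levels were 431, 462, 499 and 506 CPM in sgNTC18, 562, 391, 613 and 570.1 CPM in shPAX8-1 and 349, 498, 387 and 530.2 CPM in shPAX8-2 libraries. These groups overlapped, and the change from sgNTC18 differed between the lines by 1.00 ± 0.17 (adjusted p = 2.25e-05).

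Over the 80 members the change from sgNTC18, averaged over both constructs, differed between the lines for 30 of them. In 7 the change was more positive in OS-LM1 and in 23 more negative, or 8.75% and 28.8%, against 29.9% and 28.8% of all genes. The share in the positive direction was below the background and that in the negative direction equal to it. RPS16, whose tail reaches the decoding centre, differed most in the negative direction. It had 1181, 1179, 1253 and 1292 CPM in 786-M1A sgNTC18 libraries, 1329, 1209, 959 and 1063 CPM with shPAX8-1 and 1476, 1576, 1371 and 1801 CPM with shPAX8-2, where it rose (log2 fold change 0.36, SE 0.11, adjusted p = 0.00945). In OS-LM1 the RPS16 levels were 3103, 2947, 3423 and 3097 CPM in sgNTC18, 1355, 1219, 1250 and 1425 CPM in shPAX8-1 (log2 fold change -1.28, SE 0.09, adjusted p = 2.05e-10) and 1660, 2004, 1889 and 2104 CPM in shPAX8-2 libraries (log2 fold change -0.71, SE 0.089, adjusted p = 8.46e-07). The OS-LM1 sgNTC18 libraries lay above every other library, and the difference between the lines was -1.11 ± 0.12 (SE, adjusted p = 2.49e-08). RPS19, the gene most often mutated in Diamond-Blackfan anaemia, fell in OS-LM1 from 2492 ± 62.9 CPM (SD, n = 4) to 1069 ± 35.5 and 1271 ± 131 CPM, while its means in 786-M1A were 1272 ± 94.2, 971 ± 127 and 1270 ± 166 CPM (difference -0.90, adjusted p = 4.94e-07). RPL18 (-0.78, adjusted p = 1.40e-05), RPL39 (-0.75, adjusted p = 0.0109) and RPL10 (-0.59, adjusted p = 4.03e-04) differed in the same direction. RPL10 had 1498, 1314, 1433 and 1464 CPM in OS-LM1 sgNTC18, 675, 606, 644 and 726 CPM in shPAX8-1 and 791, 835, 994 and 1075 CPM in shPAX8-2 libraries, with no overlap between the 3 groups. The constructs differed between the lines (shPAX8-1 against shPAX8-2) for 3 members, each in the negative direction, or 3.75% against 14.5% of all genes. They were RPL22L1 and, named after their values were seen, RPL5 and RPL24. Leaving out 1 library at a time, the count fell to 1 without replicate 2 of OS-LM1 shPAX8-1, replicates 2 or 4 of OS-LM1 shPAX8-2, replicates 3 or 4 of 786-M1A shPAX8-1, or replicates 1 or 2 of 786-M1A shPAX8-2. It rose to 15 without replicate 1 and 10 without replicate 2 of 786-M1A shPAX8-1, to 8 without replicate 3 of either OS-LM1 construct and to 7 without replicate 1 of OS-LM1 shPAX8-2.

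The last question is how the lines differed. Between the sgNTC18 libraries, 51 of 80 members were higher in OS-LM1 and 14 lower, against 32.0% and 31.0% of all genes (65 members and 63.0% of all genes in either direction), with a median log2 fold change of 0.49. The share of higher members, 63.8%, was thus above the background and that of lower members, 17.5%, below it. Between the shPAX8 libraries of both constructs 40 were higher and 23 lower, against 41.7% and 41.5% of all genes, and the median was 0.21, with the share of higher members at 50% and that of lower members at 28.8%. The member furthest below the rest was RPL8, with 1089, 1384, 1305 and 1220 CPM in 786-M1A and 514, 407, 467 and 418 CPM in OS-LM1 sgNTC18 libraries (log2 fold change -1.47, SE 0.14, adjusted p = 5.06e-10). No library of one line reached the range of the other, also among the shPAX8 libraries (log2 fold change -1.38, SE 0.10, adjusted p = 4.25e-13). RPS27L was furthest above the rest among shPAX8 libraries (log2 fold change 2.59, SE 0.19, adjusted p = 8.11e-12). RPS26 was higher in OS-LM1 in both, by 0.67 and 1.66 on the log2 scale, and RPS23, which lines the decoding centre and was named after its values were seen, by 1.45 and 1.36.

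**Figure D5:**
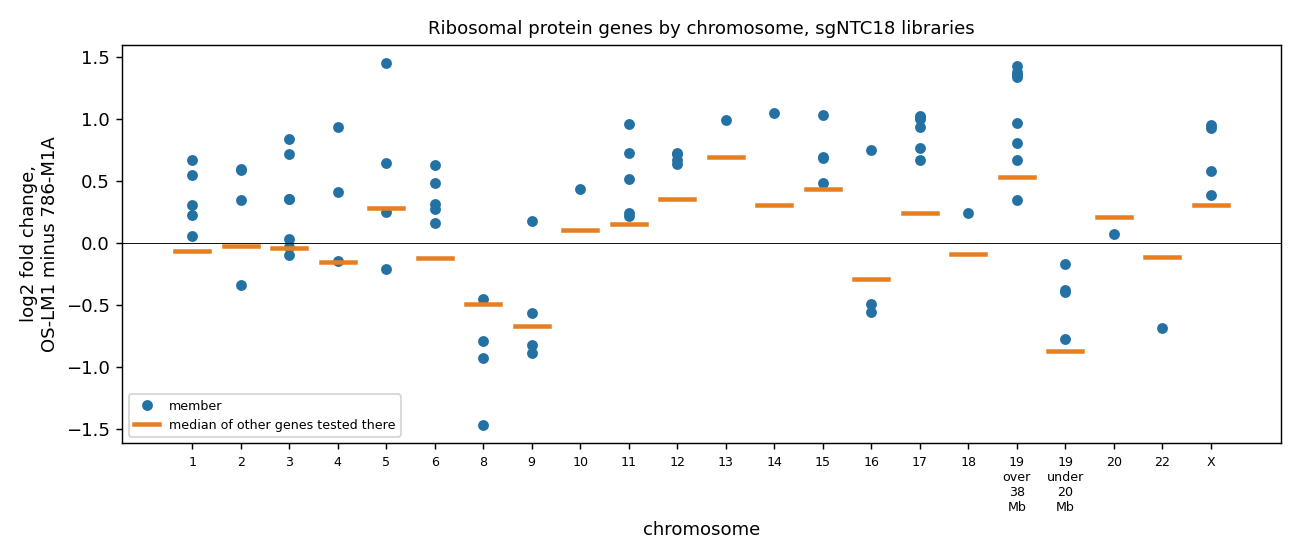
Log2 fold change of the members between OS-LM1 and 786-M1A sgNTC18 libraries, by the chromosome that carries them, with chromosome 19 in 2 parts (Mb, megabases from the start). Points are genes and orange bars the medians of all other genes tested on the same part. The 4 members on chromosome 8 lie below 0 and the 8 members on chromosome 19 over 38 Mb above it, and the medians of the other genes lie on the same sides.

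On some chromosomes the members lay far to the same side as their neighbours, a grouping made after the values were seen. The median of the members had the sign of that of the other genes tested on 16 of 22 chromosomes or parts, and the opposite sign on chromosomes 1, 2, 3, 4, 6 and 18, where the medians of the other genes lay between -0.15 and -0.027 and those of the members between 0.24 and 0.47. All 4 members on chromosome 8 (RPL7, RPL8, RPL30 and RPS20) were lower in OS-LM1, with a median of -0.86, and the 485 other genes tested there had a median of -0.49. The 8 members on chromosome 19 over 38 Mb, among them RPS16, RPS19, RPL18, RPL13A and RPS9, were all higher, with a median of 1.15 against 0.53 for 458 other genes. On chromosome 19 under 20 Mb, 3 of 4 members were lower and none higher, with a median of -0.39 against -0.87. On chromosome 9, 3 of 4 were lower, with a median of -0.69 against -0.67, and on chromosome 17 all 6 were higher, with 0.97 against 0.24. Between the shPAX8 libraries the medians of the members were -0.61 on chromosome 8, 0.43 on chromosome 19 over 38 Mb, -0.78 under 20 Mb, -0.53 on chromosome 9 and 0.69 on chromosome 17. Those of the other genes tested there were, in the same order, -0.53, 0.11, -0.95, -0.33 and 0.29. By fluorescence in situ hybridization the paper counted 6 copies of MYC, a gene on chromosome 8, in 786-M1A. The number of copies of these regions in the 2 lines was not tested here.

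Lists of genes that work with the members followed them in part. FAU, from which RPS30 is made, is a ribosomal protein gene whose symbol falls outside the rule. FAU fell with shPAX8-1 in 786-M1A (log2 fold change -1.48, SE 0.15, adjusted p = 5.41e-07) and OS-LM1 (log2 fold change -1.49, SE 0.087, adjusted p = 1.34e-11). Of 17 other TOP mRNAs, mostly of translation factors, 11 were higher and 3 lower with shPAX8-1 in 786-M1A, 10 and 3 with shPAX8-2, and in OS-LM1 10 and 6 with shPAX8-1 and 10 and 3 with shPAX8-2. Their medians were 0.89, 0.51, 0.57 and 0.65, with EIF4A2 highest in 786-M1A and HNRNPA1 lowest. Of 45 ribosome biogenesis factors, which assemble the subunits, 13 were higher and 22 lower with shPAX8-1 in 786-M1A, and 12 and 29 in OS-LM1. Of all genes 36.1% were higher and 34.5% lower in the first of these comparisons and 35.6% and 35.8% in the second, as for every list here. With shPAX8-2 the counts were 4 and 27, and 13 and 24. The medians, between -0.53 and -0.26, thus lay on the other side of 0 from those of the members. EIF6, which keeps the subunits apart until the large one is mature, was the lowest in 786-M1A with shPAX8-1 (log2 fold change -2.38, SE 0.14, adjusted p = 2.03e-09), and RRP9, a protein of the U3 particle, in OS-LM1 (log2 fold change -2.04, SE 0.17, adjusted p = 2.05e-09).

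The lists that follow are read against the same background, in which 70.6% of all genes were called with shPAX8-1 in 786-M1A and 71.4% in OS-LM1, with about as many higher as lower, so that for the shorter lists a count of a few genes is near it. Of 6 dedicated chaperones of ribosomal proteins, 1 was higher and 4 lower with shPAX8-1 in 786-M1A, and 0 and 5 with shPAX8-2. In OS-LM1 1 was higher and 3 lower with shPAX8-1, and 0 and 4 with shPAX8-2. GRWD1, the chaperone of RPL3, fell most in 786-M1A (log2 fold change -2.94, SE 0.17, adjusted p = 1.77e-09 with shPAX8-1) and TSR2, the chaperone of RPS26, most in OS-LM1 (log2 fold change -2.15, SE 0.14, adjusted p = 5.21e-11 with shPAX8-1). Of the 77 mitochondrial ribosomal proteins, which build the separate ribosome of that organelle, 10 were higher and 37 lower with shPAX8-1 in 786-M1A, and 16 and 35 in OS-LM1. Their medians were -0.28 and -0.16, against 0.58 and 0.33 for the cytosolic members. With shPAX8-2 3 of the 77 were higher and 47 lower in 786-M1A, and 10 and 42 in OS-LM1. Of 11 tested transcripts that host small nucleolar RNAs, 6 were higher and 2 lower with shPAX8-1 in 786-M1A, and 7 and 3 in OS-LM1. GAS5, a TOP transcript without a protein product, rose most in 786-M1A (log2 fold change 2.02, SE 0.17, adjusted p = 5.72e-08). Of 7 genes of the mTOR and LARP1 control of TOP mRNAs, 1 was higher and 2 lower with shPAX8-1 in 786-M1A, and 2 and 5 in OS-LM1. RPS6KB2, a kinase of RPS6, was the lowest in 786-M1A (log2 fold change -2.15, SE 0.15, adjusted p = 1.26e-08) and EIF4EBP1, an mTOR-controlled repressor of translation initiation, the lowest in OS-LM1 (log2 fold change -1.88, SE 0.14, adjusted p = 1.00e-09). The highest called were RPS6KB1 in 786-M1A (log2 fold change 0.65) and EIF4EBP2 in OS-LM1 (log2 fold change 1.13). The medians of these 7 genes were -0.050 in 786-M1A and -0.36 in OS-LM1 with shPAX8-1, and 0.072 and -0.14 with shPAX8-2.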

How the data were processed

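RNA of 24 libraries was measured, and per the labels and the study's methods the authors aligned reads to hg38 with Bowtie2 and counted them with RSEM. The deposited files give expected counts and TPM per gene. Versions and the annotation are not given in the sources used here, and the labels and the methods name different poly(A) library kits. Expected counts were rounded, genes were kept by edgeR's filter on low counts, and each line was fitted separately (14452 and 15049 genes) with TMM scaling and edgeR's quasi-likelihood test (edgeR 4.0.16, R 4.3.3). Comparisons between lines used 1 fit of the 24 libraries (15665 genes). P-values were adjusted by Benjamini-Hochberg over all genes tested. Of the 83 members 80 passed the filter. Library totals limit the precision of low members such as RPL22L1, and replicates of every group differed by more than sampling noise. The members and lists were chosen with earlier results of these data known.

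Named members were the 3 highest and 3 lowest called in each comparison within a line, up to 3 on each side beyond 3 MADs of the members' median, the paralogs with their partners, and the 5 highest and 5 lowest by TPM. In the lists, the highest and the lowest called gene were named. Alternatives were DESeq2 1.42.0 and its size factors, TMM without the members, other filters, a replicate block, each library left out, and other denominators. In others, GC or length trends were removed by a spline with 5 degrees of freedom. GC content was that of GENCODE canonical transcripts of GRCh38, and length was the gene length deposited by the authors. Counts simulated with set fold changes were used to test the fits. Start sites and windows came from RefSeq, GRCh38.p14.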

Additional observations from a re-analysis of the deposited data

Results flagged for a closer look

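Of 192 groups of 4 libraries examined for a library apart from the others, 5 held one, where chance gives about 1 in 20 groups, or 9.6. The share of all counts taken by the members was low in OS-LM1 shPAX8-1 replicate 2, at 6.80%. RPS27 was low in the same library, at 1372 CPM. RPL27 stood apart at 1618 CPM in 786-M1A shPAX8-1 replicate 4, RPS10 at 1506 CPM in OS-LM1 sgNTC18 replicate 3 and RPS28 at 1589 CPM in OS-LM1 shPAX8-2 replicate 4.

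An interaction term in edgeR's quasi-likelihood fit gave a difference between the lines, OS-LM1 minus 786-M1A, for these named members. For shPAX8-1 against shPAX8-2 it was −2.05 on the log2 scale for RPL22L1. For the average of both constructs against sgNTC18 the difference was negative for RPS16 (−1.11), RPS19 (−0.90), RPL18 (−0.78), RPL39 (−0.75), RPL10 (−0.59), RPL31 (−0.56), RPL32 (−0.53), RPL27 (−0.37) and RPL13A (−0.35). It was positive for RPS27L (1.56), RPS26 (1.00), RPS2 (0.54) and RPL3 (0.44). Each passed the adjusted threshold of 0.05.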

How the results depend on the processing

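No direction of a named member or of a median over all members tested turned under any alternative run. Some medians of members grouped by GC content did turn with the GC trend removed. That of the high-GC members went from -0.28 to 0.062 with shPAX8-1 against sgNTC18 in OS-LM1. Between the constructs in 786-M1A it went from -0.21 to 0.17. Apart from leaving out a library, 163 values over the members kept their side or size and 21 moved. Of the values of single named members 279 kept their call and 1 lost it, RPS3A between the constructs in 786-M1A with the GC trend removed (0.41, adjusted p = 0.0749 in edgeR's quasi-likelihood test). The share of counts became, as a share of TPM, 13.9, 19 and 17.7% in 786-M1A (sgNTC18, shPAX8-1, shPAX8-2) and 17.3, 21.8 and 22.0% in OS-LM1. Without the 10 most abundant other genes in the total it was 6.02, 8.04 and 7.90%, and 7.71, 8.67 and 8.94%. Without ribosomal RNA and MTRNR2L genes, chosen after seeing the data, it was 5.69% in 786-M1A and 7.28% in OS-LM1 sgNTC18 libraries. The 14 members called between the constructs in OS-LM1 became 8 when only genes with no count were removed and 27 with the length trend removed. The median between the lines in sgNTC18 libraries fell from 0.49 to 0.35 with the GC trend removed. The 3 members whose construct difference differed between lines became 7 with DESeq2, 9 with the GC trend and 13 with the length trend removed. The cause of these moves was not tested. Adding listed pseudogenes and readthrough genes to their members, also chosen after seeing the data, moved no count by over 1.5 times.

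Leaving out 1 library at a time gave 14 to 50 members called between the constructs in 786-M1A, 5 to 16 in OS-LM1 and 1 to 15 for the difference between the lines. RPS3A lost its call in 4 of 8 cases (0.51 to 0.64). With the replicate number as a block, 65 and 62 members were called against sgNTC18 in 786-M1A and 59 and 56 in OS-LM1, 39 and 11 between the constructs, 68 and 64 between the lines, and 8 and 34 for the differences between lines. The pairing of same-numbered libraries was checked by their deviations from the group means over all genes (mean correlation 0.0031, from −0.32 to 0.27), and since not every pair correlated, equal numbers were not taken as pairs. Over the members alone replicate 4 was the highest in all 6 groups, and whether its libraries share a source was not tested. A total without mitochondrial genome genes was not run, since 0 such genes are in the tables used here. Expected counts limit RPL10L, RPL3L and RPL39L, which stayed near 0.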
